A study of Homo sapiens with 8 samples.

Results

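The imprinted genes of the DLK1-MEG3, H19, KCNQ1, PEG3 and PEG10 loci were measured by RNA-seq in SK-N-SH, an established human cell line from a neuroblastoma. The rule took the rows of the deposited count table whose identifier carries the GENCODE symbol DLK1, MEG3, MEG8, MEG9, RTL1, H19, KCNQ1OT1, PEG3, PEG10 or SGCE. Each symbol matched 1 row, so 10 of the 60659 genes of the table were taken. Of these, 7 were tested for overexpression and 6 for knockdown, because the others did not pass the filter on low counts.

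The study asked how ZMYND8, a chromatin reader that responds to all-trans retinoic acid (ATRA), shapes neuronal differentiation. All 8 libraries, 2 biological replicates in each of 4 groups, came from cells in differentiation medium with ATRA at 10 uM for 24 h. In the overexpression experiment, SK-N-SH cells carrying ZMYND8 in a doxycycline-inducible lentiviral vector, selected as a stable pool with G418, were given doxycycline (Dox), and parental SK-N-SH cells were given Dox as their control. In the knockdown experiment, cells with ZMYND8 knockdown (KD) were compared with KD control cells. The labels name no Dox for either group, and how these libraries' knockdown was made, with its vector and selection, is not given in the sources used here. The parental cells are described without a vector, so the vector and its selection cannot be told apart from ZMYND8 in the first experiment. ZMYND8 had 3089 and 3612 counts in parental cells against 220691 and 182849 in overexpressing cells, and 3128 and 3374 counts in KD control cells against 1641 and 1640 in knockdown cells. Counts are given below for replicate 1 and then replicate 2 of a group. Counts on genes were 38316523 to 56256979 per library, and mitochondrial genes took 0.11% to 0.168% of them in the overexpression experiment against 2.92% to 3.41% in the knockdown experiment.

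Imprinted genes are transcribed mainly from the copy inherited from the mother or from the copy inherited from the father. At the DLK1-MEG3 locus on 14q32 the protein-coding genes DLK1 and RTL1 are known as paternally expressed, and the noncoding RNAs MEG3, MEG8 and MEG9, with the microRNAs and small nucleolar RNAs around them, as maternally expressed. On 11p15, H19 is a maternally expressed noncoding RNA beside the paternally expressed growth factor IGF2, and KCNQ1OT1 is a paternally expressed antisense RNA within KCNQ1. PEG3, a zinc finger protein, PEG10, which derives from a retrotransposon, and SGCE, the epsilon-sarcoglycan that starts beside PEG10, are paternally expressed. These libraries did not measure which copy a read came from.

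Sequences are shown for H19, whose counts moved in both experiments, and for MEG3, which had no count, so that the neighbourhoods of their starts can be set side by side. They are RefSeq windows (for MEG3 the first of those listed) of 300 bases on GRCh38.p14, from 250 bases before to 50 bases after the start, read 5′ to 3′ on the strand of the gene, and the capitals mark CG dinucleotides, where DNA methylation occurs.
H19, chr11:2001217-2001516, minus strand: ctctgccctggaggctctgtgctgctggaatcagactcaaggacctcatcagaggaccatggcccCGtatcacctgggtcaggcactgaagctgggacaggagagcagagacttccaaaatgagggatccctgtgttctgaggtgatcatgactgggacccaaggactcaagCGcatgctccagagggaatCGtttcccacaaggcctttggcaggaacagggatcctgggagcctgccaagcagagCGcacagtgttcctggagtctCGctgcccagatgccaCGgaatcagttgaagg
MEG3, chr14:100825858-100826157, plus strand: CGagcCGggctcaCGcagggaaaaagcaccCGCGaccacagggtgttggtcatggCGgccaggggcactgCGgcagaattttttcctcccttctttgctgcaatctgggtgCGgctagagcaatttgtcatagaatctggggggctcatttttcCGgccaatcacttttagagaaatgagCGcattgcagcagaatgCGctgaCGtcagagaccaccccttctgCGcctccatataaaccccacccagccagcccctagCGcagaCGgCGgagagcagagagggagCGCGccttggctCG
The H19 window held 6 CG dinucleotides and the MEG3 window 19, against a median of 14 over the 35116 RefSeq windows of this length. Windows were matched for 4 of the 10 genes, and those of RTL1 and MEG9 held 6 and 4. One form of the retinoic acid receptor half-site, AGGTCA, was searched on both strands. It occurred in the MEG9 window and in none of the other 3, and 13.8% of all windows held it. Other forms of the half-site were not searched, so these windows may hold them. H19 also carries a microRNA, MIR675, within an exon. Its mature forms are shown with the seed, bases 2 to 8, in capitals.
hsa-miR-675-5p: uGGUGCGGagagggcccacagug
hsa-miR-675-3p: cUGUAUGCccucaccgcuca
MIR675 had no count in any library, and neither had the 5 microRNA genes that lie on the other strand within RTL1. These libraries hold long RNA, so mature microRNAs of this length are not measured by them.

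Each gene was tested on the 4 libraries of its experiment with edgeR's quasi-likelihood test, and p-values were adjusted over all genes tested by Benjamini-Hochberg. A gene was called when its adjusted p was below 0.05, its log2 fold change was at least 1 in size and its mean normalized count was above 20. Upon ZMYND8 overexpression, DLK1, H19 and PEG3 were called higher, RTL1 and PEG10 rose below these limits, SGCE fell, and KCNQ1OT1 did not pass the test. Hence 6 of the 7 genes tested had an adjusted p below 0.05, where 60.8% of all 20835 genes did. Of the 7, 5 were higher and 1 lower, where 31.7% and 29.1% of all genes were, and 3 were called higher and none lower, where 11.8% and 6.84% of all genes were. DLK1 and RTL1 passed the filter on low counts only through the overexpression libraries, where they were high, so these counts describe the 7 genes tested and are no evidence of a direction over all 10. Upon knockdown, H19 was the only gene of 6 to pass, and it was called. For comparison, the adjusted p was below 0.05 for 24.3% of the 19789 genes tested upon knockdown (13.4% higher and 10.8% lower), and 1.96% were called (1.36% higher and 0.596% lower). DLK1, at 0 in both knockdown libraries, was not among the 6.

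**Figure D1:**
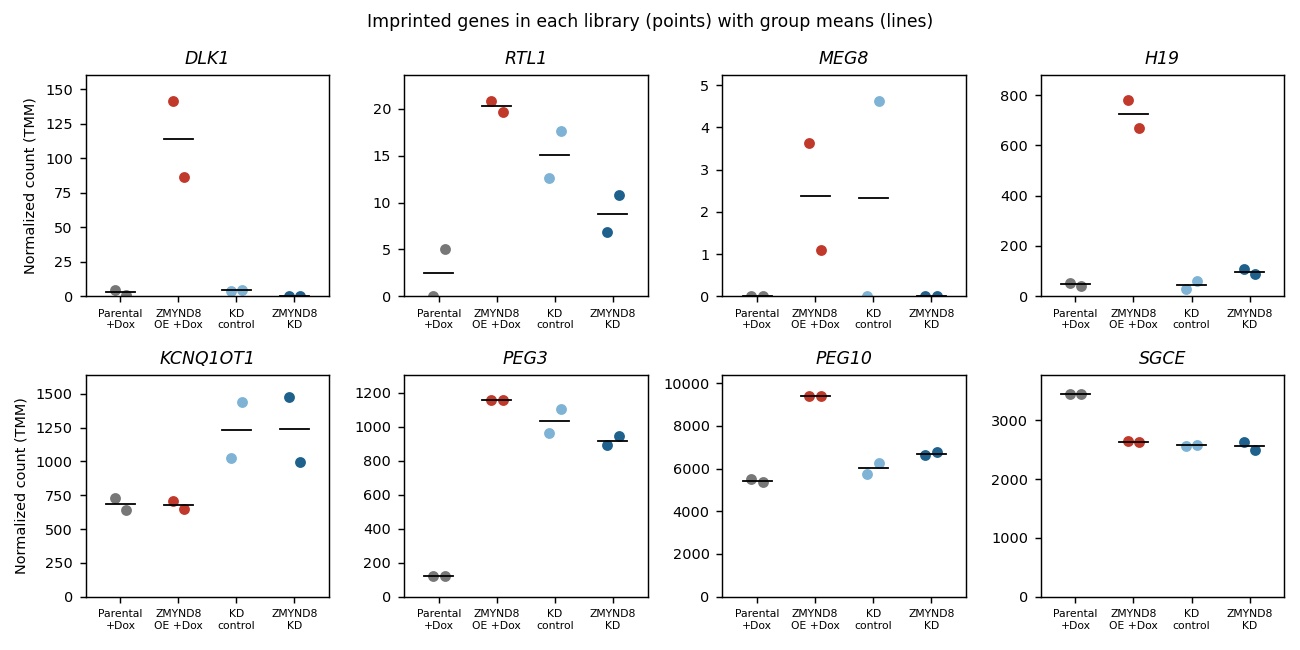
Normalized counts (TMM, vertical axis, from 0) of the 8 imprinted genes with any count, in the parental, ZMYND8 overexpression (OE), KD control and ZMYND8 knockdown (KD) groups. Points are libraries and lines are means of 2; the 2 overexpression libraries stand above all others for DLK1, H19, PEG3 and PEG10, while PEG3 of the KD control and knockdown libraries lies near them and far above the parental libraries.

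Among the paternally expressed genes of 14q32, DLK1, a transmembrane protein with epidermal growth factor repeats known from neuroendocrine tissue, had 4 and 1 counts in parental cells and 156 and 79 in overexpressing cells. Both overexpression libraries stood far above every other library, although the 2 differed from each other by more than replicates of the abundant genes did. Scaled to library size, the summed counts had a ratio of 42.8, with an exact 95% interval of 18.1 to 133 that covers counting error only. The log2 fold change was 5.41 (SE 0.49, adjusted p = 3.98e-06), and it was 6.75 without parental replicate 1 and 4.62 without parental replicate 2, with DLK1 called in both cases. Its mean normalized count was 57.9, so DLK1 was not called where the limit on that mean was raised to 100. DLK1 (ENSG00000185559, chr14:100725705-100738224, plus strand) shares no exon base with another gene. Coordinates here are on GRCh38, as the count table gives them.

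In the knockdown experiment DLK1 had 4 and 5 counts in KD control cells and 0 in both knockdown libraries. These counts fell below the filter, so no test was made. Against 3 counts over the group, the limit that a count of 0 allows here, the knockdown level was 2.90-fold lower. This value leaves out the counting error of the KD control counts and is no bound. With no filter on low counts the adjusted p of DLK1 was 0.147. In these bulk libraries, fewer cells that express a gene cannot be told apart from less RNA per cell. Correlation of log2 CPM with DLK1 over the 8 libraries was computed for 13546 genes with a mean normalized count above 100. The closest were LINC01224 (Pearson r = 0.994), COQ9 (r = 0.994) and BRME1 (r = 0.992). They head a long list, since 135 genes had an r above 0.95, and the libraries of a group share their treatment.

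RTL1 (ENSG00000254656, chr14:100879753-100903722, minus strand), a retrotransposon-derived gene needed in the placenta, was close to the limit of detection, with 0 and 5 counts in parental cells and 23 and 18 in overexpressing cells. The overexpression libraries lay above both parental libraries, with a log2 fold change of 2.94 (SE 0.70, adjusted p = 0.00408). The ratio of the summed counts was 7.46 (exact 95% interval 2.95 to 24.2), and the mean normalized count of 11.2 kept RTL1 below the limit for a call. Without parental replicate 1 the log2 fold change was 2.08, and without parental replicate 2, which held all the parental counts, the fitted value was 7.30 and is no bound. The KD control libraries had 13 and 19 counts and the knockdown libraries 7 and 11. The knockdown libraries were the lower ones without overlap, but the difference did not pass the test (log2 fold change -0.77, SE 0.48, adjusted p = 0.284).

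None of the maternally expressed noncoding RNAs of 14q32 was measured above a few counts. MEG3 (ENSG00000214548, chr14:100779410-100861031), known as a growth-restraining RNA, and MEG9 (ENSG00000223403, chr14:101068283-101072937) had 0 counts in all 8 libraries, which allows at most 3 counts in a library. MEG8 (ENSG00000225746, chr14:100894770-101038859), the host of small nucleolar RNAs, had 4 and 1 counts in overexpressing cells, 0 and 5 in KD control cells and 0 in the other 4. Reads that match several places might go uncounted. Of the 31-base words of the MEG3 exons 1.46%, and of those of MEG9 0%, also occur on an alternate contig of GRCh38. Matches elsewhere in the genome were not searched, so the part of uncounted reads in these counts of 0 was not tested. Of the genes within 500 kb of the 14q32 members, 54 of 56 microRNA genes and 47 of 47 small nucleolar RNA genes were at 0 in all libraries, and the most counts that a microRNA gene had in a library was 5. DIO3, the deiodinase at the far end of this imprinted cluster, had 1 count, in knockdown replicate 1.

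On 11p15, H19 had 45 and 40 counts in parental cells and 859 and 612 in overexpressing cells. The groups were far apart, with a log2 fold change of 4.05 (SE 0.16, adjusted p = 6.71e-09), a 16.6-fold difference. H19 was also the gene that passed in the knockdown experiment, where the KD control libraries had 31 and 67 counts and the knockdown libraries 111 and 90. Both knockdown libraries were above both KD control libraries, and the log2 fold change was 1.09 (SE 0.30, adjusted p = 0.0219). This call depended on KD control replicate 1: without it the log2 fold change was 0.66 (adjusted p = 0.126), without KD control replicate 2 it was 1.71, and without knockdown replicate 1 it was 0.93, below the limit on size. With no filter on low counts the adjusted p was 0.109, and its mean normalized count of 75.0 was below the raised limit of 100. H19 was thus higher both where ZMYND8 was overexpressed and where it was knocked down, by amounts whose difference, 2.95 on the log2 scale, passed the test (SE 0.36, adjusted p = 7.30e-06).

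The transcript counted as H19 (ENSG00000130600, chr11:1995176-2001470, minus strand) overlaps 2 small RNA genes of the other strand within 7.35% of its exon bases together with MIR675. One of these, ENSG00000275266, had 5 and 2 counts in parental cells, 48 and 45 in overexpressing cells and 0 in the knockdown experiment; the strand setting of the counting is not stated, so its reads and those of H19 cannot be told apart there. The genes closest to H19 over the 8 libraries were KIF21B (r = 0.992), CDYL2 (r = 0.991) and GFRA1 (r = 0.985), by the same measure as for DLK1. Here 54 genes had an r above 0.95.

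KCNQ1OT1 (ENSG00000269821, chr11:2608328-2699994, minus strand), the long antisense RNA known to silence its neighbours on the paternal copy, had 606 and 639 counts in parental cells and 782 and 591 in overexpressing cells. Scaled to library size these groups overlapped, and the gene did not pass the test (log2 fold change 0.08, SE 0.10, adjusted p = 0.482). With the correction for gene length the log2 fold change was 0.27 and passed (adjusted p = 0.0315), and KCNQ1OT1 is by far the longest transcript of the 10, with 91667 exon bases. The KD control libraries had 1055 and 1559 counts and the knockdown libraries 1511 and 1018, so that replicates differed more than groups did. The log2 fold change upon knockdown was 0.01 (SE 0.18, adjusted p = 0.986), and it turned with the library left out, to -0.31 (adjusted p = 0.0122) without knockdown replicate 1 and to 0.27 (adjusted p = 0.0292) without knockdown replicate 2.

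PEG3 (ENSG00000198300, chr19:56810077-56840728, minus strand), a zinc finger gene linked to growth and maternal behaviour, had 99 and 122 counts in parental cells and 1273 and 1056 in overexpressing cells. It was 10.2-fold higher, with no overlap and little spread between replicates (log2 fold change 3.35, SE 0.10, adjusted p = 8.28e-10). The KD control libraries had 990 and 1191 counts and the knockdown libraries 910 and 960. After scaling, both knockdown libraries lay just below both KD control libraries, and the log2 fold change of -0.17 (SE 0.09, adjusted p = 0.19) did not pass. Of the PEG3 exon bases 50.9% also belong to another gene: ENSG00000286125 on the other strand, with at most 23 counts in a library, and ZIM2 on the same strand, with at most 2. Reads in these bases cannot be assigned with certainty.

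PEG10 and SGCE lie head to head on 7q21 and share 219 exon bases on opposite strands. PEG10 (ENSG00000242265, chr7:94656325-94669695, plus strand), known for its role in the placenta and its gag-pol frameshift, had 4579 and 5374 counts in parental cells and 10389 and 8578 in overexpressing cells. It was 1.84-fold higher upon overexpression (log2 fold change 0.88, SE 0.05, adjusted p = 6.78e-08), below the limit on size for a call. SGCE (ENSG00000127990, chr7:94524204-94656572, minus strand) had 2872 and 3446 counts in parental cells and 2912 and 2401 in overexpressing cells. After scaling the groups did not overlap and SGCE was lower (log2 fold change -0.30, SE 0.05, adjusted p = 3.88e-04), so these neighbours moved in opposite directions.

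In the knockdown experiment PEG10 had 5933 and 6756 counts in KD control cells and 6792 and 6896 in knockdown cells. The log2 fold change of 0.16 (SE 0.05) did not pass, with an adjusted p of 0.0562. It passed, with an adjusted p of 0.0418, with all 8 libraries in 1 fit. SGCE, with 2634 and 2792 counts in KD control cells and 2687 and 2545 in knockdown cells, had a log2 fold change of -0.00 (SE 0.06, adjusted p = 0.98).

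**Figure D2:**
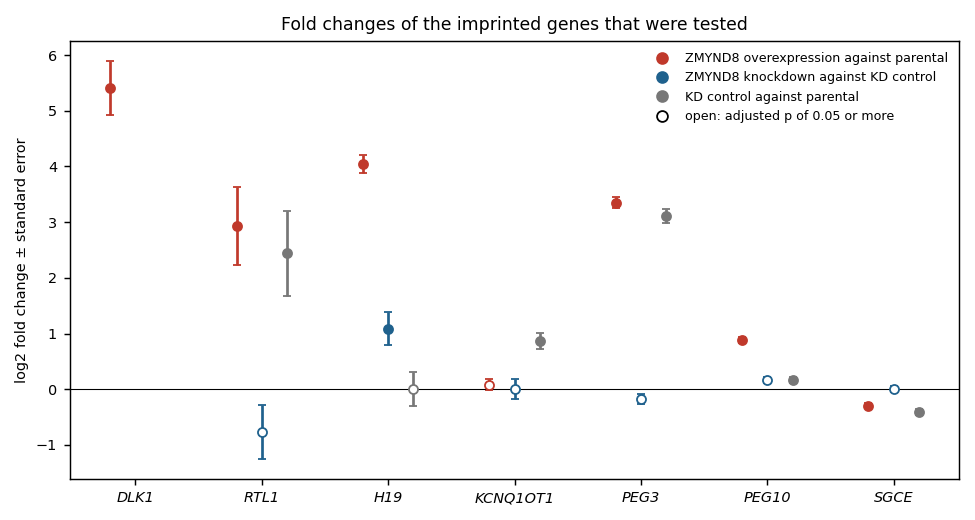
Log2 fold changes (vertical axis) with standard errors of the 7 imprinted genes tested, for ZMYND8 overexpression against parental, ZMYND8 knockdown against KD control, and KD control against parental. Filled points have an adjusted p below 0.05; the overexpression values run from -0.30 for SGCE to 5.41 for DLK1, and among the knockdown values the point of H19 at 1.09 is the filled one.

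Levels were compared between genes per length, in RPKM, which scales the reads of a gene by its exon length and by the size of the library. That length takes in every exon base the annotation gives a gene, 20876 for SGCE, 6689 for PEG10 and 2897 for H19. Where the transcripts present use only part of these bases, the level comes out too low. The order of the genes therefore depends on the annotated length. By this measure PEG10 led in every group, with mean levels of 16.1 RPKM in parental, 27.8 in overexpression, 17.8 in KD control and 19.8 in knockdown libraries. SGCE followed with 3.27, 2.50, 2.44 and 2.43 RPKM in the same order, except in overexpressing cells, where the H19 level of 4.95 RPKM stood above it. PEG3 was at 0.244 RPKM in parental libraries and at 2.34, 2.09 and 1.86 RPKM in the other 3 groups. H19 was at 0.321 RPKM in parental and 0.315 in KD control libraries, 2 groups that overlapped, and at 0.672 in knockdown libraries. KCNQ1OT1 lay at 0.146 to 0.267 RPKM over its long exon, and DLK1 reached 0.430 RPKM in overexpressing cells and 0.0161 or less elsewhere. RTL1 stayed between 0.00916 and 0.0744 RPKM.

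**Figure D3:**
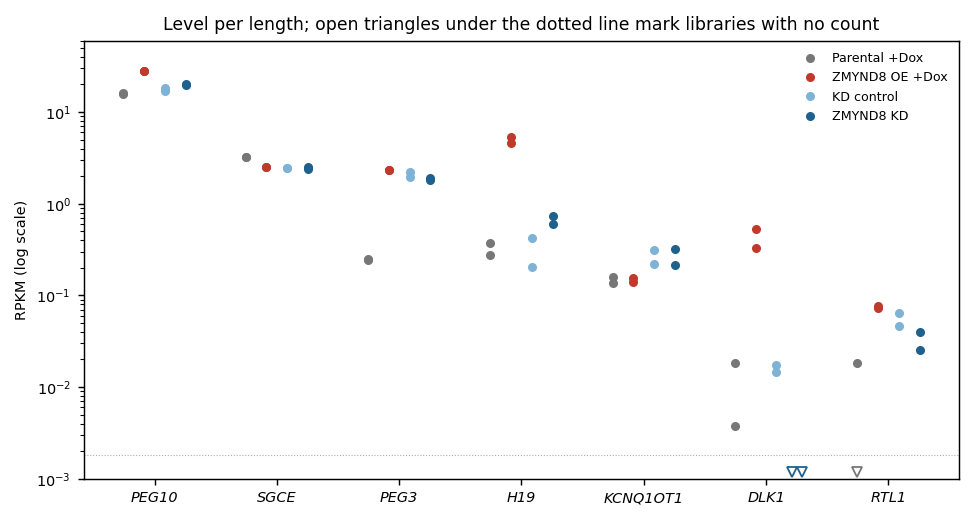
Level per length (RPKM, log scale) of 7 imprinted genes in each library, coloured by group; open triangles stand for libraries without a count. PEG10 is highest throughout at 16.1 to 27.8 RPKM on average, and the parental points of PEG3 lie well below those of the other 3 groups.

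The controls of the 2 experiments differed from each other in several of these genes. KD control against parental compares cells of different experiments. The labels name Dox for the parental cells and not for the KD control cells, so any difference in Dox or vector cannot be told apart from the experiment. The comparison shares the KD control and parental libraries with the other comparisons. Here 4 of the 6 genes tested were higher and 1 lower at an adjusted p below 0.05, where 69.9% of the 20385 genes tested passed (33.6% higher and 36.2% lower), and 1 was called higher, where 21.6% of all genes were called (10.8% in each direction). RTL1 passed the filter here only through the KD control libraries. PEG3 was higher in KD control cells by 3.11 on the log2 scale (SE 0.12, adjusted p = 2.72e-09), beside its 3.35 for overexpression. KCNQ1OT1 was higher by 0.87 (SE 0.14, adjusted p = 2.35e-04), with all 4 KD experiment libraries above the other 4, and SGCE was lower (log2 fold change -0.41, adjusted p = 2.32e-05). RTL1 was higher by 2.44 (adjusted p = 0.0144), which did not pass without KD control replicate 2 (log2 fold change 2.19, adjusted p = 0.105), without parental replicate 1 (1.59, adjusted p = 0.0802) or with DESeq2 (2.54, adjusted p = 0.0862). PEG10 was higher by 0.16 (adjusted p = 0.0229), and its adjusted p was 0.14 without KD control replicate 2, 0.101 without parental replicate 2 and 0.0571 with DESeq2. H19 did not pass (log2 fold change 0.00, SE 0.31, adjusted p = 0.999). The high H19 and DLK1 levels thus stood in overexpressing cells, while PEG3 was high in 6 of 8 libraries and low in the parental pair.

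Neuroblastoma lines hold adrenergic and mesenchymal cell states, whose markers also moved with the groups. The summed normalized count of 10 adrenergic markers was 31600 and 33150 in parental cells and 61267 and 62945 in overexpressing cells, with 8 of 9 tested markers higher and 1 lower. That of 10 mesenchymal markers was 355230 and 365394 against 149843 and 136625, with 1 of 10 higher and 9 lower. Of all genes tested upon overexpression 60.8% passed, 31.7% higher and 29.1% lower. In the knockdown experiment the adrenergic sum was 43308 and 45028 in KD control against 33269 and 36530 in knockdown libraries. The mesenchymal sum was 250220 and 248602 against 288834 and 272972. Upon knockdown 8 adrenergic markers were tested, 0 were higher, 5 lower and 3 did not pass. Of the 10 mesenchymal markers 5 were higher, 2 lower and 3 did not pass. Of all genes tested upon knockdown, 13.4% were higher and 10.8% lower. PRRX1 was among the lower mesenchymal markers (log2 fold change -0.98, adjusted p = 8.13e-07). TH, the enzyme that starts catecholamine synthesis, was at 0 in the knockdown experiment. The summed normalized count of 6 markers of Schwann and glial cells was 99.6 and 85.0 in parental cells against 181 and 183 in overexpressing cells, and 161 and 155 in KD control against 172 and 179 in knockdown libraries. Of these markers 4 were tested upon overexpression, and S100B, a calcium-binding protein, was the one that passed, with 12 and 11 counts in parental cells against 106 and 104 in overexpressing cells (log2 fold change 3.14, SE 0.28, adjusted p = 4.11e-06). S100B had 112 and 97 counts in KD control cells and 94 and 107 in knockdown cells, so that it too was low only in the parental pair. CDH19 was at 0 in parental cells and in the knockdown experiment, and SOX10 in the knockdown experiment. The part of these cell states in the values of the imprinted genes was not tested.

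Other imprinted genes were described with a list of 45 genes, of which 3 had no count. Upon overexpression 32 were tested, 15 were higher, 6 lower and 11 did not pass, and their median log2 fold change was 0.14, beside 60.8% of all genes that passed and a median of 0.03. Of these 5 were called higher and 1 lower, where 11.8% and 6.84% of all genes were. KCNQ1, a potassium channel gene that hosts KCNQ1OT1, had 4 and 5 counts in parental cells against 272 and 259 in overexpressing cells (log2 fold change 5.81, SE 0.26, adjusted p = 1.83e-08). It had 75 and 101 counts in KD control cells and 69 and 68 in knockdown cells (log2 fold change -0.31, adjusted p = 0.323). Upon overexpression KCNQ1 thus rose while KCNQ1OT1, which starts within it, kept overlapping groups. In KD control against parental cells both were higher. There the log2 fold change was 4.06 for KCNQ1 (adjusted p = 1.42e-06) and 0.87 for KCNQ1OT1 (adjusted p = 2.35e-04). CDKN1C, a cell cycle inhibitor of the same domain, had 17 and 14 counts against 62 and 53 (log2 fold change 1.83, adjusted p = 3.53e-04). Of the 31-base words of their exons, 53.9% for KCNQ1 and 92.3% for CDKN1C also occur on an alternate contig of GRCh38, so reads may have gone uncounted.

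NNAT, a neuronal proteolipid gene of 20q11, had 103 and 122 counts in parental cells against 1377 and 1183 in overexpressing cells, a log2 fold change of 3.46 (SE 0.10, adjusted p = 6.09e-10). It was lower upon knockdown, with 2301 and 2274 counts in KD control cells against 1546 and 1617 in knockdown cells (log2 fold change -0.48, SE 0.06, adjusted p = 3.32e-04). MEST, a hydrolase-like gene of 7q32, went the other way in each experiment, with a log2 fold change of -1.08 (SE 0.08, adjusted p = 7.66e-07) upon overexpression and 0.44 (SE 0.05, adjusted p = 1.74e-04) upon knockdown. Without overexpression replicate 2 the log2 fold change of MEST upon overexpression was -0.97, below the limit on size, so its call was lost. MAGEL2, of the Prader-Willi region, was higher upon overexpression by 2.85 (adjusted p = 2.63e-05) and PEG13 by 1.03 (adjusted p = 0.00814), and PEG13 did not pass without overexpression replicate 2 (log2 fold change 0.85, adjusted p = 0.0562) or with DESeq2 (adjusted p = 0.0987) and was below the limit on size without parental replicate 1 (0.89). Upon knockdown 30 of the 45 were tested. By edgeR's test 5 were higher, 3 lower and 22 did not pass, where 13.4% of all genes were higher and 10.8% lower. None of those that passed was past the limit on size. Besides NNAT and MEST, PLAGL1 was higher by 0.61 (adjusted p = 0.00191).

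**Figure D4:**
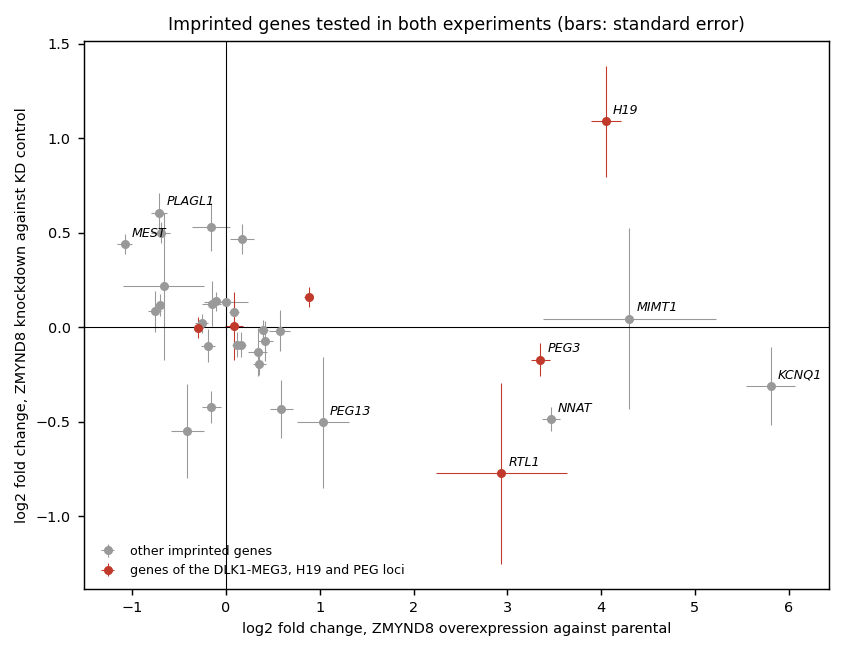
Log2 fold change upon ZMYND8 overexpression (horizontal) and upon ZMYND8 knockdown (vertical) with standard errors, for the imprinted genes of the loci described (red) and other imprinted genes (grey) that were tested in both experiments. H19 lies high on both axes, at 4.05 and 1.09, NNAT lies at 3.46 and -0.48, and MEST at -1.08 and 0.44.

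IGF2, the partner of H19, was also higher upon overexpression. It was named after its values were seen, since its mean normalized count of 18.6 fell short of a call. IGF2 had 0 counts in both parental libraries against 44 and 32 in overexpressing cells (adjusted p = 2.06e-05), and 2 counts in all over the knockdown experiment. Against 3 counts over the parental group it was 23.1-fold higher, a value that leaves out the counting error of the overexpression counts. Of its exon bases 70.7% also belong to ENSG00000284779 on the same strand. MIMT1, a noncoding RNA that starts 138 bases from PEG3 on the other strand, was likewise named after its values were seen. It had 0 and 1 counts in parental cells, 12 and 13 in overexpressing cells, 15 and 10 in KD control cells and 10 and 15 in knockdown cells. Like PEG3, MIMT1 was low only in parental cells, and its test upon overexpression passed (adjusted p = 0.00211). In that comparison IGF2 and MIMT1 passed the filter on low counts only through the overexpression libraries, where they were high. Their p-values therefore describe genes picked for their values and add no evidence to those of H19 and PEG3.

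Within 500 kb of the 10 genes lay 302 other genes, and 170 of these had no count. Upon overexpression 66 were tested, of which 22 were higher, 20 lower and 24 did not pass, and 10 were called higher and 5 lower, beside 18.6% of all genes that were called. BEGAIN, a synaptic gene that starts 138 kb before DLK1, had 147 and 159 counts in parental cells against 839 and 783 in overexpressing cells (log2 fold change 2.36, SE 0.12, adjusted p = 3.74e-08). At 19q13, ZNF835 was higher by 3.94 (adjusted p = 4.05e-06). On the far side of H19, DUSP8 and KRTAP5-AS1 were higher by 4.99 and 4.85, and LSP1, which lies between them and H19, was lower (log2 fold change -2.79, adjusted p = 1.06e-07). DUSP8 was uneven, with 119 and 25 counts in overexpressing cells, and its log2 fold change was 3.66 without overexpression replicate 1, 5.63 without overexpression replicate 2, 6.02 without parental replicate 1 and 4.29 without parental replicate 2. Near SGCE, ENSG00000285090 was lower (log2 fold change -3.28, adjusted p = 3.68e-05). These neighbours differed in the same direction between KD control and parental cells, each with an adjusted p below 0.05. The log2 fold changes there were 1.73 for BEGAIN, 1.95 for ZNF835, 5.38 for DUSP8 and 3.21 for KRTAP5-AS1. They were -2.87 for LSP1 and -0.68 for ENSG00000285090. DUSP8 was uneven there too, with 181 and 17 counts in KD control cells. Upon knockdown 57 neighbours were tested, 7 were higher, 6 lower and 44 did not pass, where 24.3% of all genes passed. LSP1 alone was called, where 1.96% of all genes were. It had 57 and 49 counts in KD control cells against 111 and 113 in knockdown cells (log2 fold change 1.13, adjusted p = 0.00221). Without KD control replicate 2 its log2 fold change was 0.98, below the limit on size, so this call was lost.

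**Figure D5:**
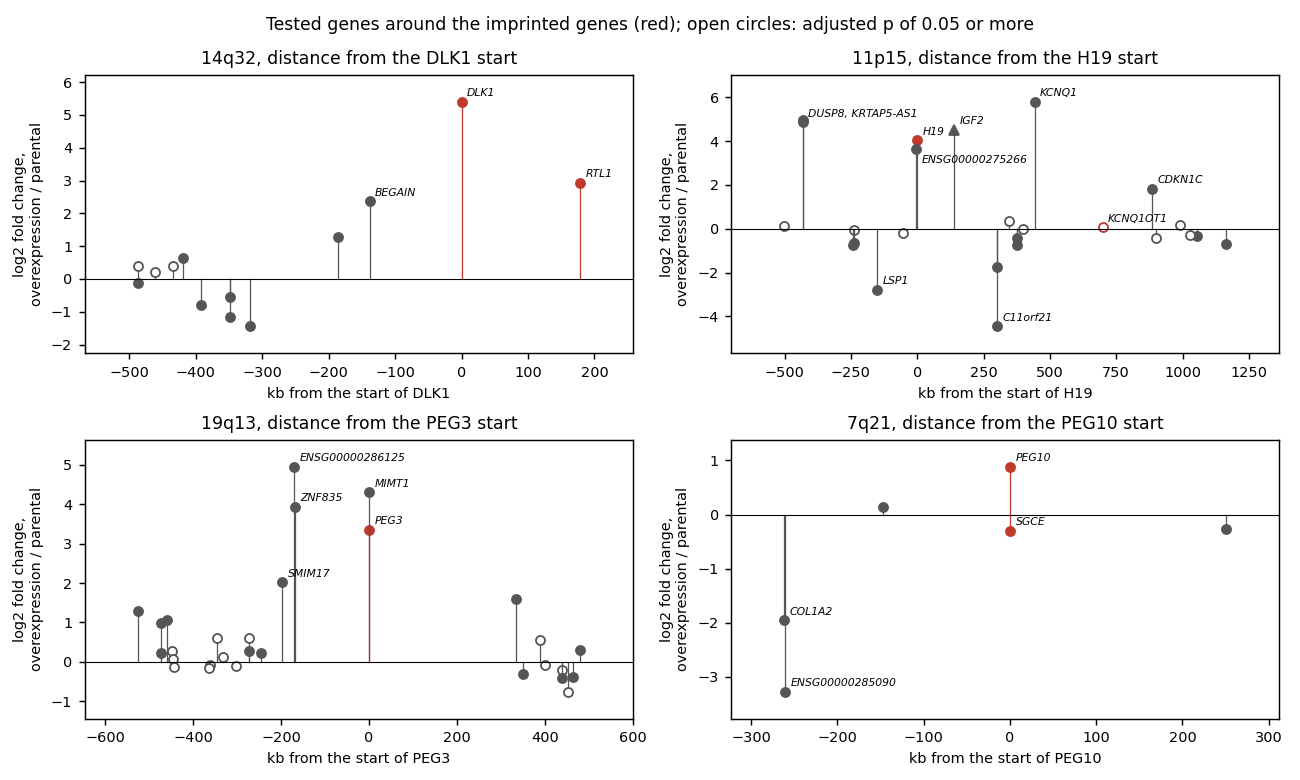
Log2 fold change upon ZMYND8 overexpression (vertical) of every tested gene within 500 kb of the imprinted genes, against the distance of its start in kb (horizontal) from the start of DLK1, H19, PEG3 or PEG10. Red marks the imprinted genes described and open circles an adjusted p of 0.05 or more. The triangle of IGF2 is its ratio against 3 counts over the parental group. Higher and lower genes lie side by side on 11p15, with KCNQ1 at 5.81 and LSP1 at -2.79.

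Of 16 factors known to set or keep imprints, 15 were tested upon overexpression, with 8 higher, 2 lower and 5 that did not pass, where 60.8% of all genes passed. DNMT3A, a de novo DNA methyltransferase, was the factor called, with 3301 and 4048 counts in parental cells against 10862 and 9426 in overexpressing cells (log2 fold change 1.42, SE 0.05, adjusted p = 3.17e-09). It had 8579 and 9307 counts in KD control cells and was called higher there than in parental cells (log2 fold change 1.09, SE 0.05, adjusted p = 8.73e-09), so that it was low only in the parental pair. Upon knockdown 2 factors were higher, 1 lower and 12 did not pass, where 24.3% of all genes passed, and DNMT3A was higher by 0.24 (SE 0.05, adjusted p = 0.00869). ZFP57, the zinc finger protein that protects methylated imprints, had no count in any library. Of 10 relatives of PEG10 and RTL1 that derive from the same kind of retrotransposon, 8 were tested upon overexpression. Of these 4 were higher and 2 lower, where 31.7% and 29.1% of all genes were. RTL5 alone was called, where 18.6% of all genes were. It had 420 and 555 counts in parental cells against 2735 and 2296 in overexpressing cells (log2 fold change 2.33, SE 0.07, adjusted p = 7.48e-10). Upon knockdown 3 of 8 relatives were higher and none lower, where 13.4% and 10.8% of all genes were. RTL5 had 2305 and 2587 counts in KD control cells, so that it was low only in the parental pair, as PEG3 was. Among 5 other sarcoglycans 3 were tested upon overexpression, and none was past the limit on size. Of the 3, 2 were higher and 1 lower, where 31.7% and 29.1% of all genes were.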

How the data were processed

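The 8 libraries of rRNA-depleted total RNA were grouped by the treatment in the labels. Per the methods, reads were trimmed (Trim_Galore), dropped below a Phred score of 25, mapped to GRCh38 by HISAT2 and assigned to GENCODE release 28 by featureCounts. The authors deposited the resulting raw counts. The strand setting is not given in the sources used here. The table has 60662 lines, and 3 lines of 1 split gene were left out. For symbols, 60418 of 60659 identifiers were found in GENCODE release 44, and coordinates are those of the table.

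The filter on low counts was filterByExpr, the normalization TMM, and the two-sided test that of edgeR 4.0.16 (quasi-likelihood, Benjamini-Hochberg adjustment, R 4.3.3). Normalized counts and RPKM in the text use TMM over all 8 libraries. The difference of the 2 effects was tested in 1 model over 8 libraries. Replicates differed beyond counting noise (chi-square per degree of freedom 6.05 to 8.86). Exact intervals cover counting error only, and limits of 3 counts cover only that of the group without counts. The main fits of overexpression, knockdown and the difference of effects were checked on simulated data in which 200 genes changed. For overexpression and knockdown, so were the fits with the replicate block, with the gene length correction and with DESeq2. The other fits were not checked in this way. The changed genes had ample counts, so genes as low as RTL1 were not covered.

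The members and lists were chosen with earlier results of these data known. Named were the 10 genes, ZMYND8, the genes of each list called in the overexpression or knockdown comparison, at most 12 a list and at most 8 neighbours within 500 kb by the size of change, and the 3 genes closest to DLK1, MEG3 and H19 by correlation, of which MEG3 had none because it was at 0 throughout. The alternatives tried were DESeq2 1.42.0, size factors by RLE or upper quartile, unfiltered counts, stricter and looser thresholds, 1 fit over 8 libraries, a replicate block, a correction for gene length (loess, span 0.5) alone and with that block, fits without mitochondrial genes and ZMYND8, and leaving out each library. The share of 31-base words on the 261 alternate contigs was computed after seeing the data.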

Additional observations from a re-analysis of the deposited data

Results flagged for a closer look

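The effect of ZMYND8 overexpression and that of ZMYND8 knockdown were set against each other in 1 edgeR model over all 8 libraries. The difference had an adjusted p below 0.05 for 6 of the 7 imprinted genes tested, where 49% of all 22619 genes tested had. DLK1 passed the filter on low counts here only through the overexpression libraries, where it was high. The 6 of 7 thus describe the genes tested and are no evidence over all the imprinted genes described. The effects differed by 3.52 on the log2 scale for PEG3 (adjusted p = 2.35e-11) and by 2.95 for H19 (adjusted p = 7.30e-06). They differed by 0.72 for PEG10 (adjusted p = 1.09e-06) and by 3.71 for RTL1 (adjusted p = 0.0031). In each of these genes the log2 fold change upon overexpression was the higher one. Upon knockdown alone PEG3 and RTL1 were below 0, at -0.17 and -0.77, and did not pass. For SGCE the difference was -0.30 (adjusted p = 0.00282). For DLK1 it was 10.5 (adjusted p = 4.31e-05), a fitted value that depends on the prior count, because both knockdown libraries were at 0. KCNQ1OT1 did not pass (0.07, adjusted p = 0.839). The 2 experiments have different controls, and the labels name Dox in the overexpression experiment only. The part of these in the differences was not tested.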

How the results depend on the processing

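Of the values of single genes recomputed under the alternatives, 555 kept their direction and their side of the threshold, 21 turned, 6 newly passed and 10 no longer passed. With a mean normalized count above 100 the genes called numbered 2331 for overexpression, 174 for knockdown and 2611 for KD control against parental, and without a threshold on fold change 11332, 4707 and 12719. Of the imprinted genes, 5 were called for overexpression and 4 for KD control against parental without a threshold on fold change, and 0 for knockdown with no filter on low counts or with a mean above 100. With a mean above 100 the overexpression calls were H19 and PEG3, and DLK1 was not called.

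Leaving out 1 library at a time gave 3638 to 4113 genes called for overexpression, 343 to 462 for knockdown and 4258 to 4615 for KD control against parental, and 9949 to 10338 genes whose effects differed. The imprinted genes called numbered 3 to 3, 0 to 1 and 1 to 2. The other imprinted genes that passed numbered 19 to 21 for overexpression and 6 to 9 for knockdown, the maintenance factors 7 to 11 and 2 to 4, and the neighbours 38 to 38 and 10 to 16.

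The direction turned where values were close to 0. For KCNQ1OT1 it was -0.020 to 0.17 over the libraries left out for overexpression and -0.31 to 0.27 for knockdown, -0.20 to 0.37 for the difference of effects, and it was -0.094 for knockdown with the gene length correction, -0.0099 with upper quartile normalization, and -0.0097 for the difference with no filter. For SGCE upon knockdown it was -0.044 to 0.038 over the libraries left out, 0.0018 with no filter and 0.00030 without mitochondrial genes and ZMYND8. For H19 in KD control against parental it was -0.61 to 0.43 over the libraries left out, -0.025 with DESeq2, -0.0027 with all 8 libraries and -0.024 with no filter. The cause was not tested.

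The deviations of same-numbered replicates correlated at 0.05 for overexpression, 0.20 for knockdown and -0.10 for KD control against parental over 13544 genes. The labels tie the samples of different groups by a replicate number only. Whether these samples were paired is not known, and the correlations cannot decide it. With the replicate block 3886, 393 and 4415 genes were called, and 3, 1 and 1 of the imprinted genes. The block moved the maintenance factors that passed upon knockdown from 3 to 6, and the gene length correction to 5 with and without the block. PEG10 upon knockdown passed with the block (log2 fold change 0.16, adjusted p = 0.0121) and with the block and the gene length correction (0.15, adjusted p = 0.0154). With the replicate block H19 was at -0.029 in KD control against parental, and with the block and the gene length correction KCNQ1OT1 was at -0.10 upon knockdown. A crossed pairing of the KD control and parental replicate numbers, chosen after seeing the data, called 4404 genes, and H19 was at -0.056 there.

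In the knockdown experiment DLK1, RTL1, MEG8 and IGF2 had 0 to 19 counts in a library. With 2 libraries a group, changes of these genes there were not detectable at this depth unless large.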
